A study of Rattus norvegicus with 16 samples.

Results

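The genes described here are the core components of TGF-β signalling in rat kidney cells, namely the ligands Tgfb1, Tgfb2 and Tgfb3, the receptors Tgfbr1, Tgfbr2 and Tgfbr3, and the intracellular mediators Smad2, Smad3 and Smad7. They were chosen by name, as the genes whose symbol in the count table equals a member of this list, and all 9 were found among the 32623 genes of the table. TGF-β ligands are secreted in a latent form, bound to matrix proteins, and act after release through a complex of type I and type II receptors that phosphorylates Smad2 and Smad3. These join Smad4 and enter the nucleus, where they change the transcription of target genes, among them the inhibitor Smad7, which closes a feedback loop. In the kidney the pathway is known for its part in fibrosis, in the growth arrest of tubule cells and in the production of matrix by fibroblasts.

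RNA was measured in 2 established rat kidney lines, NRK-52E, an epithelial line from the proximal tubule, and NRK-49F, a fibroblast line. NRK-52E cells grew on filter inserts above NRK-49F cells in wells, so that both lines shared a medium in coculture. After 24 h without serum the cells were kept for 48 h at pH 7.4 (control) or pH 6.0 (acidosis), values that the sample labels write as 7 and 6. The comparisons address how acidosis changes gene expression in each line, and how the lines differ at either pH. The 4 groups of 4 libraries were NRK-52E at pH 7.4, NRK-52E at pH 6.0, NRK-49F at pH 7.4 and NRK-49F at pH 6.0. Both lines are immortalised and were measured in coculture only, so no group shows either line by itself. The labels do not say whether the replicates were separate cultures, so each p-value measures the spread between these samples.

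Each library held between 16201084 and 34784862 counted fragments. The totals were 17760185 to 20612657 in NRK-52E at pH 7.4, 16844811 to 23856187 in NRK-52E at pH 6.0, 17518187 to 27607214 in NRK-49F at pH 7.4 and 16201084 to 34784862 in NRK-49F at pH 6.0. The 9 genes had between 311 and 8782 counts in every library, and all 9 passed the filter on low counts in each comparison. Levels are given in FPM, which here means edgeR's CPM, counts scaled to a common library size with TMM factors over the 16 libraries. FPM values carry no correction for transcript length, so levels are compared between groups and not between genes. Values of single libraries are listed in the order of replicates 1 to 4. Fragments that map to several places were counted, and the strand of the libraries is not stated. A value can therefore include reads from near-identical copies of a gene or from an antisense partner.

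The labelled cell types were checked against 10 epithelial and 10 fibroblast marker genes. In NRK-52E several defining epithelial markers were absent or nearly so. Esrp1 had no count in any of the 16 libraries, Epcam reached at most 0.047 FPM in that line, Krt18 0.18 FPM, Cldn7 0.0612 FPM and Cdh1 1.87 FPM. Ocln was present in NRK-52E at a mean of 41.2 FPM at pH 7.4 and 9.67 FPM at pH 6.0, and Tjp3 at 17.3 and 43.8 FPM. Krt8 was not higher in the epithelial line at both pH values, with means of 430 and 316 FPM in NRK-52E and 848 and 206 FPM in NRK-49F. In NRK-49F, Thy1 had no count in any library and Dcn reached at most 0.593 FPM. Mean Dcn was higher in NRK-52E than in NRK-49F at pH 7.4 (0.718 against 0.470 FPM) and lower at pH 6.0 (0.0485 against 0.235 FPM). Pdgfra (392 FPM at pH 7.4 and 368 FPM at pH 6.0), Prrx1 (64.9 and 82.2 FPM) and Col1a1 (6205 and 8288 FPM) were high in NRK-49F and low in NRK-52E. S100a4, Twist1 and Lum were also higher in NRK-49F in both media. Their NRK-49F means were lower under acidosis (S100a4 2252 to 628 FPM, Twist1 94.7 to 73.2 FPM, Lum 8.27 to 1.92 FPM). For Pdgfrb the control means were 87.2 FPM in NRK-49F against 46.4 FPM in NRK-52E. Under acidosis its means were 21.8 against 16.3 FPM, and the ranges of the lines overlapped. Col3a1 and Acta2 were higher in NRK-52E than in NRK-49F.

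The summed level of the epithelial markers was 450 to 527 FPM in NRK-52E at pH 7.4, 336 to 417 FPM in NRK-52E at pH 6.0, 786 to 950 FPM in NRK-49F at pH 7.4 and 200.4 to 221 FPM in NRK-49F at pH 6.0. Krt8 made up most of this sum in every library of both lines. The summed level of the fibroblast markers was 6205 to 6440 FPM and 1874 to 3219 FPM in NRK-52E at pH 7.4 and pH 6.0, mostly Col3a1, and 9291 to 9825 FPM and 8645 to 10156 FPM in NRK-49F, mostly Col1a1. The fibroblast sums of NRK-49F overlapped between the pH values. Within them Col1a1 had a higher mean at pH 6.0, whereas S100a4, Pdgfrb, Lum and Col3a1 had lower means. The other sums differed without overlap, in the same libraries as the genes described below, and their part in those results was not tested. In bulk RNA, fewer cells of a type and less RNA per cell cannot be told apart.

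A pair of libraries stood apart from the rest of their groups. Pearson's r between libraries was taken over genes with a mean of at least 10 FPM. Replicate 4 of NRK-52E at pH 6.0 had an r of 0.951 to 0.970 with the other libraries of its group. These other libraries reached 0.983 to 0.995 among themselves. Replicate 3 of NRK-49F at pH 7.4 reached 0.975 to 0.981 with its group. No library was left out of the values below, and calls of named genes that are lost or gained without either of these libraries are stated.

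A gene is called a DEG here when its FDR was below 0.01 in both edgeR and DESeq2, fitted on all genes. Log2 fold changes, their standard errors (SE) and the FDR values printed are those of edgeR. In NRK-52E, acidosis changed 5 of the 9 genes, 1 upward and 4 downward, where 56.8% of the 13735 genes tested were DEGs, 28.2% upward and 28.5% downward. In NRK-49F it also changed 5 of the 9, 1 upward and 4 downward, where 37.8% of the 13339 genes tested were DEGs, 18.4% upward and 19.4% downward. The count of NRK-52E is close to its background and depended on 1 library and on the threshold. It was 8 of the 9 without replicate 4 at pH 6.0 and 9 of the 9 at FDR below 0.05, where the share over all genes was also larger, at 64% and 68.9%. Over the 9 genes the log2 fold changes had medians of −0.41 (NRK-52E) and −0.43 (NRK-49F), against 0.0014 and −0.0029 over all genes tested. With library totals in place of TMM these medians were −0.63 and −0.39, against −0.21 and 0.04 over all genes tested.

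**Figure D1:**
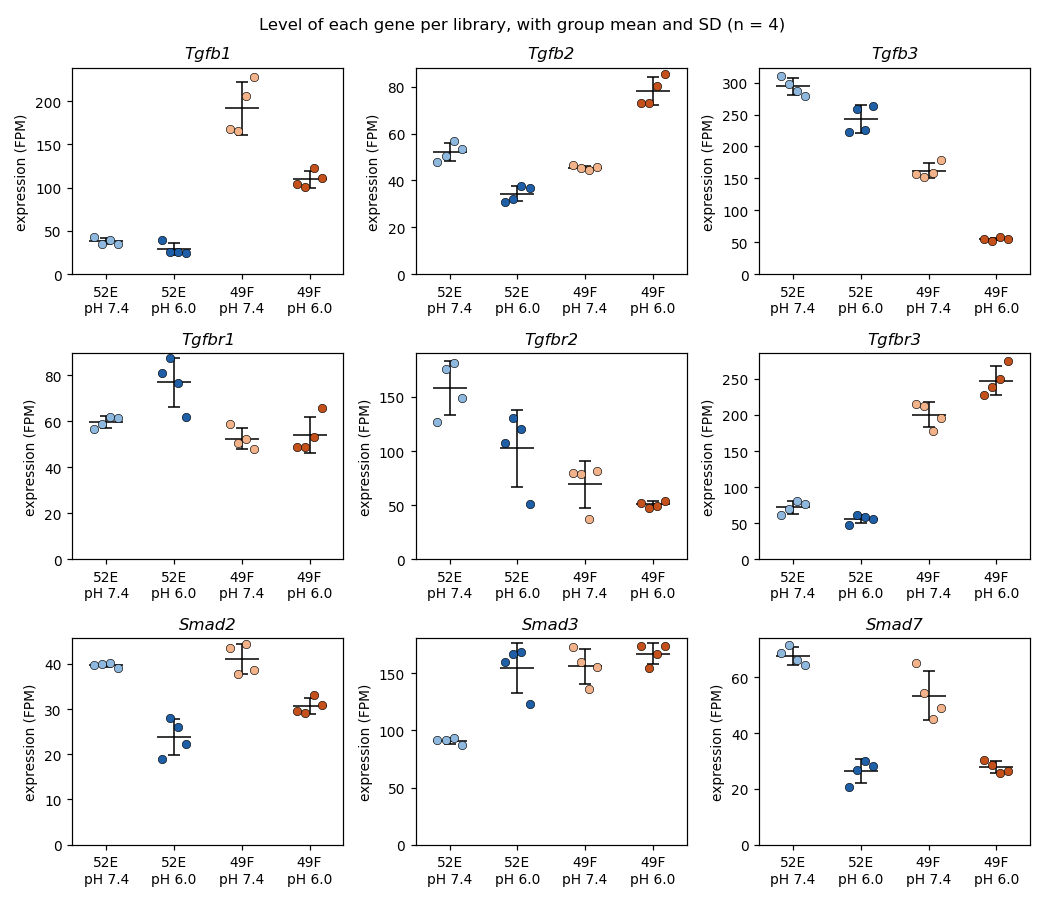
Expression of the 9 genes in FPM in each of the 16 libraries (points, replicates 1 to 4 from left to right), with the mean (bar) and SD (whiskers) of the 4 libraries of each group of cell line and pH. Tgfb2 lies lower at pH 6.0 in NRK-52E (30.9 to 37.5 FPM against 47.7 to 56.9 FPM) and higher in NRK-49F (73.1 to 85.5 FPM against 44.6 to 46.6 FPM).

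The ligand Tgfb1 (ENSRNOG00000020652, chromosome 1) is the form most often tied to kidney fibrosis. In NRK-49F it was at 167, 166, 206 and 229 FPM at pH 7.4 and at 104, 101, 123 and 111 FPM at pH 6.0. In NRK-52E it was at 42.9, 35.4, 39.3 and 34.8 FPM at pH 7.4 and at 39.9, 26.0, 25.7 and 24.7 FPM at pH 6.0. All acidosis libraries of NRK-49F lay below all its controls, whereas in NRK-52E replicate 1 at pH 6.0 lay among the controls and the other 3 lay below them. Tgfb1 fell in NRK-49F by 0.82 on the log2 scale (SE 0.11, FDR 9.0e-05). In NRK-52E the log2 fold change was −0.41 (SE 0.16, FDR 0.0442), which was no DEG. Without replicate 1 at pH 6.0 it was −0.61 (FDR 0.00104), a DEG. With all libraries and library totals in place of TMM it was −0.63 (FDR 0.00344), still no DEG by the rule of both tools. The exact two-sided permutation test over the 8 libraries of NRK-52E gave p = 0.114.

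Tgfb2 (ENSRNOG00000002418, chromosome 13) encodes a ligand that binds its receptors weakly unless Tgfbr3 presents it. NRK-52E cells had 47.7, 50.3, 56.9 and 53.4 FPM at pH 7.4 and 30.9, 32.1, 37.5 and 36.7 FPM at pH 6.0. NRK-49F cells had 46.6, 45.1, 44.6 and 45.6 FPM at pH 7.4 and 73.1, 73.2, 80.3 and 85.5 FPM at pH 6.0. The acidosis libraries lay below every control in NRK-52E and above every control in NRK-49F. Tgfb2 fell in NRK-52E by 0.62 (SE 0.11, FDR 0.000386) and rose in NRK-49F by 0.76 (SE 0.08, FDR 1.66e-05). The difference between these effects, taken as NRK-52E minus NRK-49F, was −1.40 (SE 0.13, FDR 1.45e-07). Of the 9 genes it was the only DEG in both lines with opposite signs.

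Tgfb3 (ENSRNOG00000009867, chromosome 6) encodes the third ligand. Levels in NRK-52E were 311, 298, 287 and 279 FPM at pH 7.4 and 223, 259, 226 and 264 FPM at pH 6.0. Levels in NRK-49F were 156, 152, 159 and 179 FPM at pH 7.4 and 55.8, 52.4, 57.5 and 54.8 FPM at pH 6.0. Every acidosis library lay below every control of its line, with a narrow gap in NRK-52E and a wide gap in NRK-49F. Tgfb3 fell in NRK-49F by 1.57 (SE 0.08, FDR 8.05e-08), with TMM the largest change of the 9 genes in either line. With library totals in place of TMM it was −1.52, and Smad7 in NRK-52E was then larger, at −1.58. In NRK-52E the value was −0.29 (SE 0.09, FDR 0.0119), which was no DEG in edgeR. Without replicate 4 at pH 6.0 it was −0.34 (FDR 0.00199), a DEG, as it was with all 16 libraries in a single fit (−0.31, FDR 0.00294) and with library totals in place of TMM (−0.50, FDR 0.000588). The effects differed by 1.26 (SE 0.12, FDR 1.33e-07).

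Tgfbr1 (ENSRNOG00000007036, chromosome 5), the type I receptor whose kinase phosphorylates the Smads, ranged from 56.6 to 62.0 FPM in NRK-52E at pH 7.4 and from 62.1 to 87.5 FPM at pH 6.0. In NRK-49F it ranged from 48.1 to 58.8 FPM at pH 7.4 and from 48.9 to 65.6 FPM at pH 6.0. The NRK-52E groups did not overlap, though their nearest libraries, among them replicate 4 at pH 6.0, nearly met, and the NRK-49F groups overlapped. The log2 fold change was 0.34 (SE 0.11, FDR 0.0146) in NRK-52E and 0.03 (SE 0.11, FDR 0.819) in NRK-49F, neither a DEG. Without replicate 4 at pH 6.0 the NRK-52E value was 0.42 (FDR 0.000529), a DEG, whereas with library totals in place of TMM it was 0.13 (FDR 0.329). Without replicate 4 at pH 7.4 or replicate 4 at pH 6.0 the NRK-49F value changed sign, to −0.01 and −0.07.

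Tgfbr2 (ENSRNOG00000013265, chromosome 8) encodes the type II receptor, which binds the ligand first. In NRK-52E it was at 127, 175, 181 and 149 FPM at pH 7.4 and at 108, 131, 120 and 51.2 FPM at pH 6.0. In NRK-49F it was at 80.1, 79.1, 36.9 and 81.8 FPM at pH 7.4 and at 51.9, 47.7, 49.5 and 54.2 FPM at pH 6.0. In each line 1 library lay far below the rest of its group. These were the same libraries that stood apart from their groups in the correlations between libraries. The log2 fold change was −0.65 (SE 0.24, FDR 0.0306) in NRK-52E and −0.46 (SE 0.20, FDR 0.0635) in NRK-49F, and neither was a DEG. Without replicate 4 at pH 6.0 it was −0.43 (SE 0.13, FDR 0.00997) in NRK-52E. Without replicate 3 at pH 7.4 it was −0.67 (SE 0.09, FDR 5.93e-05) in NRK-49F. Tgfbr2 was a DEG in either line once that library was left out, and the exact two-sided permutation test with all libraries gave p = 0.0571 and p = 0.143.

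Tgfbr3 (ENSRNOG00000002093, chromosome 14) encodes betaglycan, a coreceptor without a kinase that presents ligands to the others. NRK-52E cells had 60.9, 70.1, 80.9 and 77.0 FPM at pH 7.4 and 47.8, 61.2, 58.0 and 55.4 FPM at pH 6.0. NRK-49F cells had 215, 213, 177 and 196 FPM at pH 7.4 and 228, 239, 249 and 275 FPM at pH 6.0. The groups touched in NRK-52E, where replicate 2 at pH 6.0 lay above replicate 1 at pH 7.4, and did not overlap in NRK-49F. Tgfbr3 fell in NRK-52E by 0.40 (SE 0.12, FDR 0.00985), and by 0.60 with library totals in place of TMM. The call was lost in 5 of 8 fits that left out 1 library, namely replicates 2 (−0.42), 3 (−0.36) or 4 (−0.39) at pH 7.4 and replicates 1 (−0.34) or 3 (−0.41) at pH 6.0. In NRK-49F the value was 0.29 (SE 0.09, FDR 0.0202), no DEG in edgeR. The effects differed by −0.70 (SE 0.15, FDR 0.000673).

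Smad2 (ENSRNOG00000018140, chromosome 18) encodes a mediator that the receptor phosphorylates. Levels in NRK-52E were 39.7, 40.1, 40.2 and 39.1 FPM at pH 7.4 and 19.0, 28.0, 26.1 and 22.3 FPM at pH 6.0. Levels in NRK-49F were 43.6, 37.7, 44.4 and 38.7 FPM at pH 7.4 and 29.5, 29.2, 33.2 and 30.9 FPM at pH 6.0. The acidosis libraries lay below every control in both lines. Smad2 fell by 0.76 (SE 0.12, FDR 0.000226) in NRK-52E and by 0.43 (SE 0.10, FDR 0.00261) in NRK-49F. The NRK-49F call was lost without replicate 1 at pH 7.4 (−0.41, FDR 0.0103) or replicate 2 at pH 6.0 (−0.42, FDR 0.0107). The difference between the lines was −0.34 (SE 0.15, FDR 0.0754).

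Smad3 (ENSRNOG00000008620, chromosome 8) encodes the other mediator, which binds DNA directly. In NRK-52E it was at 91.9, 91.7, 93.4 and 87.1 FPM at pH 7.4 and at 160, 167, 169 and 123 FPM at pH 6.0. In NRK-49F it was at 173, 159, 136 and 156 FPM at pH 7.4 and at 174, 154, 167 and 174 FPM at pH 6.0. All acidosis libraries lay above the controls in NRK-52E, with replicate 4 the lowest of them, and the groups overlapped in NRK-49F. Smad3 rose in NRK-52E by 0.74 (SE 0.10, FDR 7.31e-05), and by 0.83 (SE 0.06) without replicate 4 at pH 6.0. In NRK-49F the value was 0.08 (SE 0.09, FDR 0.45). It ranged from 0.03, without replicate 3 at pH 7.4, to 0.13 when 1 library was left out. The effects differed by 0.65 (SE 0.14, FDR 0.00098). Smad2 and Smad3 thus moved in opposite directions in NRK-52E.

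Smad7 (ENSRNOG00000018359, chromosome 18) encodes the inhibitor that blocks the type I receptor. NRK-52E cells had 68.6, 71.5, 66.2 and 64.3 FPM at pH 7.4 and 20.5, 26.8, 29.96 and 28.3 FPM at pH 6.0. NRK-49F cells had 65.1, 54.2, 44.9 and 48.9 FPM at pH 7.4 and 30.4, 28.4, 25.6 and 26.2 FPM at pH 6.0. The acidosis libraries lay far below every control in both lines. Smad7 fell by 1.38 (SE 0.12, FDR 2.89e-06) in NRK-52E and by 0.96 (SE 0.12, FDR 5.14e-05) in NRK-49F. The difference between these effects was −0.43 (SE 0.18, FDR 0.0504).

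**Figure D2:**
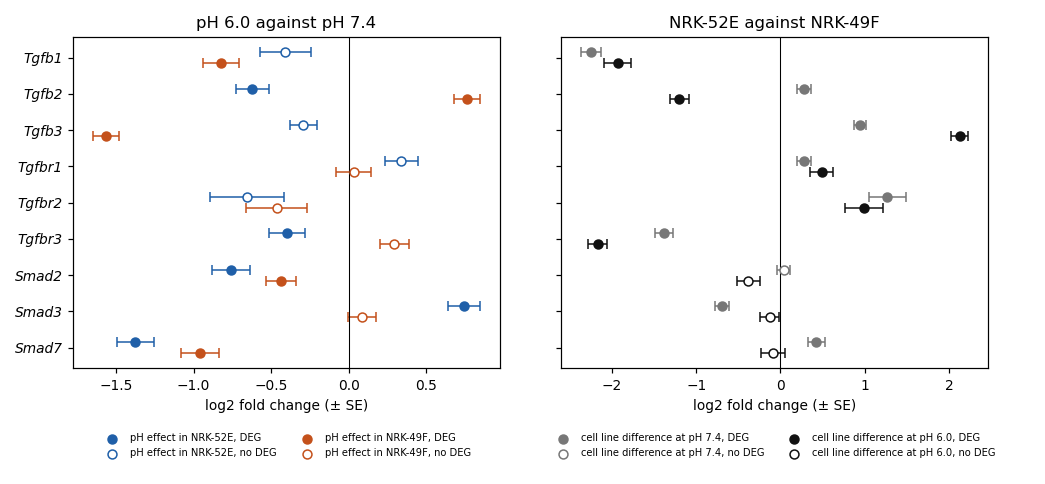
Log2 fold changes with SE (whiskers) of the 9 genes, on the left for pH 6.0 against pH 7.4 in each cell line and on the right for NRK-52E against NRK-49F at each pH, each from 4 libraries against 4. Filled points are DEGs. Tgfb2 lies at −0.62 in NRK-52E and at 0.76 in NRK-49F, and Smad7 lies at −1.38 and −0.96.

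Over the whole list, 4 of the 9 pH effects differed between the lines as DEGs of the interaction, 2 upward and 2 downward, where 36.9% of the 14679 genes tested did, 19.3% upward and 17.5% downward. These were Tgfb2, Tgfb3, Tgfbr3 and Smad3, and each kept its call in all 16 fits that left out 1 library. With library totals in place of TMM, Smad3 lost it (0.41, FDR 0.0311). The other 5 lay between −0.43 and 0.40, with FDR values from 0.0504 to 0.673. Without replicate 1 of NRK-52E at pH 6.0 the value of Tgfb1 moved from 0.40 to 0.097 and that of Tgfbr1 from 0.30 to 0.15. The median over the 9 was −0.19, against −0.01 over all genes, and it changed sign without replicate 4 of NRK-52E at pH 6.0 (0.029) or replicate 3 of NRK-49F at pH 7.4 (0.014). With library totals in place of TMM this median was −0.42, against −0.25 over all genes. In exact permutation tests (two-sided, on log2(FPM + 1)), with 70 arrangements of 4 against 4 libraries, the smallest p the design allows is 0.0286. In these exact tests that value was reached for the pH effect in NRK-52E by 6 genes, the others being Tgfb1, Tgfbr2 (p = 0.0571) and Tgfbr3 (p = 0.0571). In NRK-49F it was reached by 6 genes, the others being Tgfbr1 (p = 0.714), Tgfbr2 and Smad3 (p = 0.314), by the same exact test.

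The column names of the count table carry a further number, either 21 or 22 in NRK-52E libraries and either 20 or 21 in NRK-49F libraries, which splits each group into 2 libraries and 2 and whose meaning the labels do not give. The pH effects were refitted within each number, a choice made after the data were seen. For the 5 DEGs of NRK-52E the log2 fold changes within 21 and 22 were −0.68 and −0.59 for Tgfb2, −0.31 and −0.50 for Tgfbr3, −0.80 and −0.73 for Smad2, 0.79 and 0.67 for Smad3 and −1.61 and −1.18 for Smad7. For those of NRK-49F the values within 20 and 21 were −0.70 and −0.91 for Tgfb1, 0.68 and 0.86 for Tgfb2, −1.51 and −1.61 for Tgfb3, −0.46 and −0.39 for Smad2 and −1.01 and −0.88 for Smad7. Each kept its sign within both numbers. With 2 libraries against 2, Tgfbr3 and Smad2 were no DEG within either number, nor were Tgfb2 and Smad3 within 22. With the number as a covariate in the fit, all 18 pH effects of the 9 genes stayed on the same side of the threshold with the same sign.

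The lines differed at pH 7.4 in 8 of the 9 genes, 5 higher in NRK-52E and 3 higher in NRK-49F, where 66.6% of the 14026 genes tested differed, 33.3% in either direction. The count was 5 without replicate 2 of NRK-52E (60.4% of all genes) or replicate 4 of NRK-49F (65.3%), and 5 with all 16 libraries in a single fit (59.8%). At pH 6.0 they differed in 6 of the 9, 3 higher in NRK-52E and 3 lower, where 59.8% of the 13796 genes tested differed, 28.6% higher and 31.3% lower. The median difference of the 9 genes was 0.28 and −0.13, against 0.03 and −0.03 over all genes. With library totals in place of TMM it was 0.58 and 0.019, against 0.34 and 0.12 over all genes. These comparisons use the same libraries as the pH effects above and are no independent measurement of them.

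Among the ligands, Tgfb1 was lower in NRK-52E by 2.25 on the log2 scale at pH 7.4 (SE 0.12, FDR 1.08e-08) and by 1.93 at pH 6.0 (SE 0.16, FDR 4.85e-07), in every library. Tgfb3 was higher in NRK-52E in every library, by 0.95 (SE 0.07, FDR 3.4e-07) and 2.13 (SE 0.10, FDR 3.35e-09). Tgfb2 changed sides. It was higher in NRK-52E by 0.28 at pH 7.4 (SE 0.08, FDR 0.008) and lower by 1.20 at pH 6.0, a log2 difference of −1.20 (SE 0.11, FDR 1.25e-06), with no overlap at either pH. The call at pH 7.4 was lost in 7 of 8 fits that left out 1 library, all but the fit without replicate 1 of NRK-52E, with values from 0.22 to 0.32.

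Among the receptors, Tgfbr2 was higher in NRK-52E by 1.27 at pH 7.4 (SE 0.22, FDR 0.000247) and by 0.99 at pH 6.0 (SE 0.23, FDR 0.0017). At pH 6.0 replicate 4 of NRK-52E lay within the range of NRK-49F and the other 3 libraries above it. The exact two-sided permutation test gave p = 0.0286 for Tgfbr2 at pH 7.4 and p = 0.0857 at pH 6.0. Without replicate 3 of NRK-49F at pH 7.4 the difference was 1.06, and without replicate 4 of NRK-52E at pH 6.0 it was 1.22 (SE 0.10). Tgfbr3 was lower in every NRK-52E library, with log2 differences of −1.39 (SE 0.10, FDR 2.46e-07) and −2.17 (SE 0.11, FDR 5.61e-09). For Tgfbr1 the differences were 0.28 (SE 0.08, FDR 0.00958) and 0.49 (SE 0.14, FDR 0.00667), with overlapping groups. The first was called in only 1 of 8 fits that left out 1 library, the fit without replicate 1 of NRK-49F (range 0.23 to 0.33). The second was called in 2, those without replicate 4 of either line (range 0.43 to 0.58). For Tgfbr1 the exact two-sided permutation test gave p = 0.0571 at either pH.

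Among the Smads, Smad3 was lower in every NRK-52E library at pH 7.4, with a difference of −0.70 (SE 0.08, FDR 8.43e-06), and the groups overlapped at pH 6.0 (−0.13, SE 0.12, FDR 0.34). Without replicate 4 of NRK-52E at pH 6.0 the latter difference was −0.04. Smad7 was higher in NRK-52E at pH 7.4 by 0.43 (SE 0.11, FDR 0.0031), with 3 of the 4 NRK-52E libraries above the NRK-49F range. That call was lost without replicate 2 of NRK-52E or replicate 4 of NRK-49F, and the value without single libraries ranged from 0.35 to 0.53. By the exact two-sided permutation test Smad7 had p = 0.0571 at pH 7.4. At pH 6.0 the Smad7 difference was −0.08 (SE 0.14, FDR 0.618). Smad2 differed by 0.04 (SE 0.08, FDR 0.69) at pH 7.4 and by −0.38 (SE 0.14, FDR 0.0271) at pH 6.0. Each fit is normalised over its own libraries and FPM over all 16, and by FPM the Smad2 controls lay slightly lower in NRK-52E (39.8 against 41.1 FPM), so the sign of the small difference at pH 7.4 is not settled. The groups of Smad2 did not overlap at pH 6.0, though this was no DEG.

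The order of the 4 groups differed between genes, though Tgfb3 and Tgfbr2 shared the same order. By group means (± SD, n = 4), Tgfb1 was highest in NRK-49F at pH 7.4 (192 ± 31 FPM), then in NRK-49F at pH 6.0 (109.7 ± 9.8 FPM), in NRK-52E at pH 7.4 (38.1 ± 3.8 FPM) and in NRK-52E at pH 6.0 (29.1 ± 7.2 FPM), and only the last pair overlapped. Tgfb2 ran from NRK-49F at pH 6.0 (78.0 ± 6.0 FPM) through NRK-52E at pH 7.4 (52.1 ± 3.9 FPM) and NRK-49F at pH 7.4 (45.5 ± 0.83 FPM) to NRK-52E at pH 6.0 (34.3 ± 3.3 FPM), with no overlap between neighbours. Tgfb3 ran from NRK-52E at pH 7.4 (294 ± 14 FPM) through NRK-52E at pH 6.0 (243 ± 21 FPM) and NRK-49F at pH 7.4 (162 ± 12 FPM) to NRK-49F at pH 6.0 (55.1 ± 2.1 FPM), again without overlap. For these ligands most steps between groups exceeded the spread of the libraries.

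Tgfbr1 was highest in NRK-52E at pH 6.0 (76.8 ± 11 FPM), and the other groups, NRK-52E at pH 7.4 (59.8 ± 2.5 FPM), NRK-49F at pH 6.0 (54.1 ± 7.9 FPM) and NRK-49F at pH 7.4 (52.4 ± 4.6 FPM), overlapped with their neighbours. For Tgfbr2 the order was NRK-52E at pH 7.4 (158 ± 25 FPM), NRK-52E at pH 6.0 (103 ± 36 FPM), NRK-49F at pH 7.4 (69.5 ± 22 FPM) and NRK-49F at pH 6.0 (50.8 ± 2.9 FPM), and every neighbour overlapped. For Tgfbr3 it was NRK-49F at pH 6.0 (248 ± 20 FPM), NRK-49F at pH 7.4 (200.1 ± 17 FPM), NRK-52E at pH 7.4 (72.2 ± 8.8 FPM) and NRK-52E at pH 6.0 (55.6 ± 5.7 FPM), and only the last pair overlapped.

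For Smad2 the controls of NRK-49F (41.1 ± 3.4 FPM) and NRK-52E (39.8 ± 0.49 FPM) overlapped and lay above NRK-49F (30.7 ± 1.8 FPM) and NRK-52E (23.8 ± 4.0 FPM) at pH 6.0, which were separate. For Smad3, NRK-49F at pH 6.0 (167 ± 9.2 FPM), NRK-49F at pH 7.4 (156 ± 15 FPM) and NRK-52E at pH 6.0 (155 ± 22 FPM) overlapped, and NRK-52E at pH 7.4 (91.0 ± 2.7 FPM) lay below them. For Smad7 the controls of NRK-52E (67.6 ± 3.1 FPM) and NRK-49F (53.3 ± 8.8 FPM) overlapped, as did NRK-49F (27.7 ± 2.2 FPM) and NRK-52E (26.4 ± 4.1 FPM) at pH 6.0, with a gap between the controls and the acidosis groups.

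Other genes of the pathway were taken from 8 lists with 97 genes in all, of which 96 were in the table and Col1a2 is not analysed here. Of these, 76 were tested in NRK-52E, with 12 higher and 33 lower at pH 6.0 (median −0.49), where 28.2% of all genes tested were higher and 28.5% lower. In NRK-49F 77 were tested, with 13 higher and 30 lower and a median of −0.20, where 18.4% of all genes were higher and 19.4% lower. The medians over all genes tested were 0.0014 and −0.0029. Between the lines, 36 of 82 were higher in NRK-52E and 31 lower at pH 7.4 (median 0.14, all genes 33.3% and 33.3%), and 31 of 79 were higher and 29 lower at pH 6.0 (median 0.02, all genes 28.6% and 31.3%). The interaction was called for 46 of 85, 21 upward and 25 downward (median −0.32), where it was called for 36.9% of all genes, 19.3% upward and 17.5% downward. Values of single genes below are log2 fold changes at pH 6.0 with SE, and all are DEGs unless stated.

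**Figure D3:**
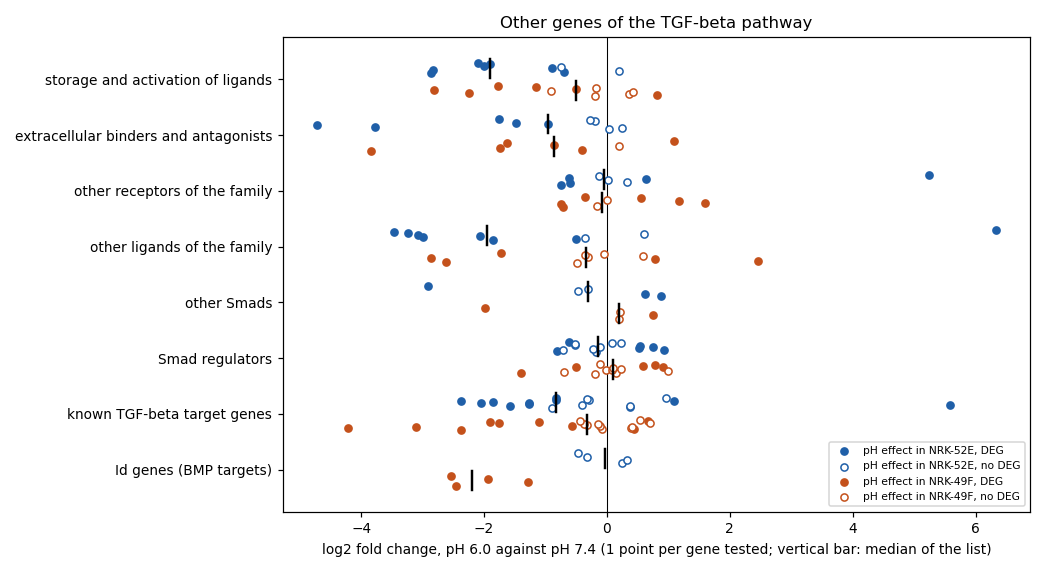
Log2 fold changes at pH 6.0 against pH 7.4 of the other TGF-β pathway genes, 1 point per gene tested, by list and cell line, with the list's median as a vertical bar. Filled points are DEGs. The medians of the storage genes lie at −1.90 (NRK-52E) and −0.51 (NRK-49F), and those of the Id genes lie at −0.04 and −2.20. The rightmost point, Nodal in NRK-52E, comes from 0 or 1 counts per library at pH 7.4, so its size is not determined.

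For the storage and activation of ligands, by latent TGF-β binding proteins, fibrillin, integrins, thrombospondin and furin, 7 of 9 genes tested (12 in the list) fell in NRK-52E, against 28.5% of all genes. None was higher, which held for edgeR at an unadjusted p below 0.05 (0 genes) and for DESeq2 by itself (0 genes), and the median was −1.90. In NRK-49F 1 of 11 was higher and 5 were lower (all genes 18.4% and 19.4%), with a median of −0.51. The largest falls in NRK-52E were Fbn1 (−2.87 ± 0.44), Itgb8 (−2.83 ± 0.39) and Thbs1 (−2.10 ± 0.18), with 2 to 9 counts per library for Fbn1 at pH 6.0. Those in NRK-49F were Ltbp1 (−2.82 ± 0.23), Itgb6 (−2.25 ± 0.56) and Thbs1 (−1.78 ± 0.32). Itgb6 was at 0 to 20 counts per library in NRK-49F at pH 6.0, and its call was lost without replicates 2 or 4 at pH 7.4 or replicates 1 or 3 at pH 6.0 (range −3.40 to −1.98). Furin, a protease that cleaves the ligand precursors, fell in NRK-52E (−0.70 ± 0.09) and rose in NRK-49F (0.81 ± 0.14).

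Of the extracellular binders and antagonists, 9 of 11 were tested in NRK-52E and 5 fell (all genes 28.5%), with a median of −0.96. None was higher there, nor in edgeR at an unadjusted p below 0.05 (0 genes) or in DESeq2 by itself (0 genes). In NRK-49F 7 were tested, with 1 higher and 5 lower (all genes 18.4% and 19.4%) and a median of −0.86. Fmod, a small proteoglycan that binds TGF-β, fell in NRK-52E from a mean of 317 to 12.2 FPM (−4.72 ± 0.11). Among genes with a mean of at least 1 FPM in the higher group, the BMP antagonist Nog (−1.75 ± 0.21) and Fstl1 (−1.49 ± 0.10) came next. In NRK-49F the proteoglycan Aspn fell from 88.5 to 6.11 FPM (−3.85 ± 0.35), followed by Chrd (−1.75 ± 0.11) and Grem1 (−1.63 ± 0.11), and the protease Htra1 rose (1.09 ± 0.10).

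Of the other receptors of the family (11 genes), 8 were tested in each line, with 2 higher and 3 lower in NRK-52E (median −0.05, all genes 28.2% and 28.5%) and 3 higher and 3 lower in NRK-49F (median −0.07, all genes 18.4% and 19.4%). Eng, a coreceptor related to Tgfbr3, rose in NRK-52E from 0.192 to 7.74 FPM (5.23 ± 0.48), with 0 to 10 counts per library at pH 7.4. In NRK-49F, where it was at 191 FPM at pH 7.4, it fell slightly (−0.35 ± 0.10). The decoy receptor Bambi rose in both lines (0.63 ± 0.10 for NRK-52E, 1.17 ± 0.12 for NRK-49F), and Acvr1 fell in both (−0.75 ± 0.10 and −0.72 ± 0.10). The remaining DEGs were Bmpr1a (−0.62 ± 0.15) and Acvr1b (−0.60 ± 0.11) in NRK-52E and Acvr2b (1.599 ± 0.35), Bmpr2 (0.55 ± 0.14) and Acvr2a (−0.75 ± 0.16) in NRK-49F. Leaving out 1 library cost 4 of these calls in some fits. They were Bmpr1a (replicate 4 at pH 7.4 or 1 at pH 6.0, range −0.73 to −0.56), Eng in NRK-49F (all but replicate 3 at pH 7.4 and 4 at pH 6.0, range −0.39 to −0.29), Bmpr2 (all but replicate 2 at pH 7.4 and 3 at pH 6.0, range 0.47 to 0.63) and Acvr2a (replicate 3 at pH 6.0, range −0.88 to −0.68).

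Of the other ligands of the family, activins, BMPs and GDFs (18 genes), 10 were tested in each line, with 1 higher and 7 lower in NRK-52E (median −1.95, all genes 28.2% and 28.5%) and 2 higher and 3 lower in NRK-49F (median −0.33, all genes 18.4% and 19.4%). In NRK-52E the activin subunits Inhbb (−3.47 ± 0.27) and Inhba (−3.24 ± 0.64) and Gdf6 (−3.08 ± 0.40) fell most. Inhba had 0 to 6 counts per library at pH 6.0, and its value ranged from −4.33 to −2.77 when 1 library was left out, so the order of these falls is not fixed. Nodal had 0 or 1 counts per library in NRK-52E at pH 7.4 and 20 to 40 counts at pH 6.0, a mean of 1.35 FPM. In NRK-49F, Bmp5 (2.46 ± 0.48) and Bmp6 (0.78 ± 0.18) rose, and Bmp4 (−2.63 ± 0.15) and Inhbb (−1.72 ± 0.16) fell. Bmp4 also fell in NRK-52E (−0.50 ± 0.09). Bmp5 had 2 to 10 counts per library in NRK-49F at pH 7.4, with means of 0.326 FPM there and 1.74 FPM at pH 6.0. The call of Bmp6 was lost without replicates 1 or 2 at pH 7.4 or replicate 3 at pH 6.0 (range 0.70 to 0.88).

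The other Smads numbered 5. In NRK-52E all were tested, with 2 higher and 1 lower (median −0.31, all genes 28.2% and 28.5%), and in NRK-49F 4 were tested, with 1 higher and 1 lower (median 0.20, all genes 18.4% and 19.4%). Smad4, the partner shared by Smad2 and Smad3, rose in both lines, by 0.62 (SE 0.16) in NRK-52E and 0.76 (SE 0.14) in NRK-49F. The NRK-52E groups of Smad4 overlapped, and its call there remained in 2 of 8 fits that left out 1 library, those without replicate 3 at pH 7.4 or replicate 4 at pH 6.0 (range 0.51 to 0.74). Smad1, a mediator of BMP signals, rose in NRK-52E (0.88 ± 0.11). Smad9, another BMP mediator, fell there from 6.69 to 0.879 FPM (−2.91 ± 0.61), a call kept in only 2 fits, those without replicates 1 or 4 at pH 6.0 (range −3.64 to −2.54). The inhibitor Smad6 fell in NRK-49F (−1.98 ± 0.15), from a mean of 42.4 to 10.9 FPM.

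Of the 14 regulators of Smads, such as ubiquitin ligases, phosphatases and corepressors, all were tested in both lines. In NRK-52E 4 were higher and 2 lower (median −0.15, all genes 28.2% and 28.5%), and in NRK-49F 3 were higher and 2 lower (median 0.09, all genes 18.4% and 19.4%). The phosphatase Ppm1a (0.93 ± 0.13), Strap (0.76 ± 0.09) and Tgif1 (0.53 ± 0.12) rose in NRK-52E, and Zfyve9, which brings Smads to the receptor, fell (−0.62 ± 0.12). In NRK-49F Trim33 (0.91 ± 0.18), Wwp1 (0.78 ± 0.12) and Usp15 (0.59 ± 0.10) rose and Tgif2 (−0.50 ± 0.13) fell. Pmepa1, both an inhibitor and a known target of the pathway, fell in both lines (−0.82 ± 0.17 and −1.40 ± 0.17). The corepressor Skil was no DEG, with −0.22 (SE 0.31) in NRK-52E and 1.002 (SE 0.30, FDR 0.0148) in NRK-49F. Its NRK-52E value was 0.02 without replicate 4 at pH 6.0, and its NRK-49F value was 1.40 and a DEG without replicate 2 at pH 7.4. The calls of Tgif1 (replicates 3 or 4 at pH 7.4, range 0.40 to 0.60) and Tgif2 (all but replicate 3 at pH 7.4, range −0.55 to −0.45) were lost when 1 library was left out.

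Of 22 known targets of TGF-β, 17 were tested in NRK-52E, with 3 higher and 8 lower (median −0.82, all genes 28.2% and 28.5%), and 19 in NRK-49F, with 2 higher and 7 lower (median −0.32, all genes 18.4% and 19.4%). Ccn2, a matrix regulator induced by TGF-β, fell in both lines, in NRK-52E from a mean of 1477 to 504 FPM (−1.57 ± 0.08) and in NRK-49F from 1314 to 71.4 FPM (−4.21 ± 0.36). The largest rise was that of the cell cycle inhibitor Cdkn1a in NRK-52E, from 29.1 to 1411 FPM (5.58 ± 0.21). The matrix genes Postn (−2.37 ± 0.23), Fn1 (−2.04 ± 0.21) and Col3a1 (−1.26 ± 0.16) and the inhibitor Ldlrad4 (−1.85 ± 0.15) fell in NRK-52E, and Snai1 (1.10 ± 0.17) rose. In NRK-49F, Col3a1 (−3.10 ± 0.28), Acta2 (−2.38 ± 0.33) and Fn1 (−0.57 ± 0.13) fell and Zeb1 (0.67 ± 0.16) rose. Acta2 was low in NRK-49F, at means of 2.34 FPM at pH 7.4 and 0.458 FPM at pH 6.0, with 7 to 15 counts per library at pH 6.0. Bhlhe40 rose in both lines (0.37 ± 0.10 and 0.44 ± 0.10).

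Calls of 4 target values depended on single libraries. Bhlhe40 in NRK-52E was a DEG in only 1 of the 8 fits, the fit without replicate 4 at pH 6.0 (range 0.33 to 0.45), and in NRK-49F it lost its call without replicates 1 or 2 at pH 7.4 or 3 at pH 6.0 (range 0.38 to 0.52). Fn1 in NRK-49F lost it without replicates 1, 2 or 4 at pH 7.4 or 2 or 3 at pH 6.0 (range −0.66 to −0.49). Zeb1 lost it without replicate 1 at pH 7.4 or replicates 1, 3 or 4 at pH 6.0 (range 0.55 to 0.78). The falls of Ccn2, Fn1 in NRK-52E and Col3a1 did not depend on a single library.

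The 4 Id genes, targets of the BMP branch, were read as a contrast to the targets above. In NRK-49F all 4 fell, Id4 by 2.54 (SE 0.27), Id1 by 2.46 (SE 0.15), Id3 by 1.94 (SE 0.16) and Id2 by 1.28 (SE 0.17), with no overlap between the groups and a median of −2.20, where 19.4% of all genes were lower. In NRK-52E none was a DEG, with 0 genes at an unadjusted p below 0.05 in edgeR and 0 in DESeq2 by itself, and the median was −0.04. The values were 0.25 (SE 0.13) for Id1, 0.33 (SE 0.21) for Id2, −0.33 (SE 0.27) for Id3 and −0.47 (SE 0.49) for Id4. Without replicate 4 at pH 6.0, Id3 was at −0.74 (SE 0.11) in NRK-52E and was a DEG, and Id1 was at 0.13, Id2 at 0.14 and Id4 at −0.87, still no DEGs. Id4 was at −0.10 without replicate 1 at pH 7.4, and the fits without replicate 1 at pH 6.0 gave −0.19 for Id3 and 0.49 for Id2. The interaction was called for all 4, though for Id4 the call was lost in 7 of the 16 fits that left out 1 library (range 1.66 to 2.42), among them that without replicate 4 of NRK-52E at pH 6.0.

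Of the marker lists, 5 epithelial genes were tested in NRK-52E, with 1 higher and 4 lower (all genes 28.2% and 28.5%), and 3 in NRK-49F, with 0 higher and 1 lower (all genes 18.4% and 19.4%; edgeR 0 higher at an unadjusted p below 0.05, DESeq2 by itself 1). Of the fibroblast markers, 6 were tested in NRK-52E, with 0 higher (0 in edgeR at that p and 0 in DESeq2 by itself) and 4 lower, and 8 in NRK-49F, with 0 higher (2 and 1) and 4 lower, where the shares over all genes are the same as for the epithelial markers. Between the lines the fibroblast markers had a median log2 difference of −5.98 at pH 7.4 and −7.02 at pH 6.0. The latter was −5.63 when each gene without a count in 1 group was set to a bound of 3 counts over that group. The epithelial markers had medians of 3.76 and 3.10, over only 5 and 4 of the 10 genes, those tested. At pH 7.4, 3 were higher in NRK-52E and 1 lower (all genes 33.3% and 33.3%). At pH 6.0, 3 were higher and 0 lower (all genes 28.6% and 31.3%; 0 lower in edgeR at that p and in DESeq2 by itself).

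Likeness to each member over the 16 libraries was measured by Pearson's r of log2(FPM + 1). Symbols with prefixes such as LOC, RGD or AABR, and repeated symbols, were left out. The genes with the most similar pattern were taken from the remaining 8930, all with a mean of at least 10 FPM. The libraries fall into 4 groups, so r mostly follows the group means, and it is a description. For the ligands they were Tmem158 (r = 0.990) and Casp6 (r = 0.989) for Tgfb1, Mmd (r = 0.969) and Wdhd1 (r = 0.953) for Tgfb2, and Pik3ip1 (r = 0.995) and Olfm2 (r = 0.992) for Tgfb3. For the receptors they were Sacm1l (r = 0.938) and Cnot6l (r = 0.932) for Tgfbr1, Mical3 (r = 0.973) and Fam168b (r = 0.964) for Tgfbr2, and Socs5 (r = 0.992) and Ano1 (r = 0.991) for Tgfbr3. For the Smads they were Tef (r = 0.956) and Wdr34 (r = 0.951) for Smad2, Stt3b (r = 0.969) and Tollip (r = 0.967) for Smad3, and Me2 (r = 0.969) and Samd11 (r = 0.969) for Smad7. As an example, Mmd was at a mean of 109 and 30.3 FPM in NRK-52E at pH 7.4 and pH 6.0 and at 100.2 and 592 FPM in NRK-49F, moving in the same directions as Tgfb2.

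Promoter sequence from RefSeq (build GRCr8, windows of 300 bases, mostly before the gene's start) was found for all 9 genes, in 10 windows, with 2 overlapping windows for Smad2. The windows of these genes had a median GC content of 69.7%, against 51.7% over all 33469 windows. A search on both strands for 6 motifs, chosen after the data were seen, gave these shares of all windows, with no motif containing another. The Smad box CAGAC was in 50.1%, the Smad palindrome GTCTAGAC in 0.197% and the AP-1 site TGANTCA in 7.33%, and the windows of the 9 genes held none of these. The E-box CACGTG was in 6.42% of all windows and in that of Tgfb2, and the antioxidant response core TGACNNNGC was in 12.1% and in that of Tgfbr2. The GC-rich Smad site GGCGCC was in 11% of all windows and in 6 of the 10, those of Tgfbr1, Tgfbr3, Smad3, Smad7 and both of Smad2. A match is a description of the sequence only, and its absence says nothing about the factor.

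The sequences around GGCGCC are shown for Smad2 and Smad7, the genes that fell in both lines, and that around CACGTG for Tgfb2, which moved in opposite directions. Each is 30 bases, 5′ to 3′ on the gene's strand, with the motif in capitals, at chr18:71263400-71263429 (+) for Smad7, chr18:72125240-72125269 (+) and chr18:72125333-72125362 (+) for Smad2 and chr13:100792897-100792926 (−) for Tgfb2.
Smad7: cagagccagccgGGCGCCtcgctcggtccg
Smad2 first window: ggccctgcccgcGGCGCCcggcctccttcc
Smad2 second window: cgggcggccgcgGGCGCCaatcagcgggcg
Tgfb2: cactcatccacaCACGTGtggaaggcaggg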

How the data were processed

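Poly(A) RNA was sequenced in 16 libraries. The authors aligned reads to rn6, a rat assembly, and counted fragments per Ensembl gene with featureCounts, fragments mapping to several places included, and deposited these counts without normalization. The submitters' processing notes name HISAT2 2.1.0 as the aligner, whereas the study's methods name tophat2. The 9 genes and the pathway lists were chosen with earlier results of these data known.

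Each pH effect (4 libraries against 4 within a line), each line difference (within a pH) and the interaction (16 libraries) was fitted on all genes with edgeR 4.0.16 (quasi-likelihood, TMM, filterByExpr) and DESeq2 1.42.0 (Wald test) in R 4.3.3, with Benjamini-Hochberg FDR. DEGs had FDR below 0.01 in both. SE is the absolute log2 fold change over the square root of edgeR's F. Exact two-sided permutation tests used log2(FPM + 1), in Python 3.11.15 with pandas 2.3.3 and numpy 2.4.6, and a pseudocount of 0.1 gave the same p-values.

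Besides the 9 genes, the text names per list and line up to 3 DEGs with the largest rise and 3 with the largest fall, with a mean of at least 1 FPM in the higher group, always Ccn2, Skil, Pmepa1 and Smad4, and markers. Some of these DEGs are also given in the line where they rank lower, and Id2 is named, after their values were seen. Some pathway genes are not reported here, and the list counts leave them out. No library was left out. Between libraries of a group, chi-square divided by its degrees of freedom was at least 6.12, so no library duplicates another. The alternatives are given in the closing section.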

Additional observations from a re-analysis of the deposited data

Results flagged for a closer look

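In the 36 sets of 4 libraries (9 genes in 4 groups), 2 held a library farther from the others than Dixon's 95% limit allows, where chance gives about 1 in 20, or 1.8 of 36. Tgfb1 was at 39.88 FPM in replicate 1 of NRK-52E at pH 6.0, against 24.7 to 26.0 FPM in the other 3 libraries. Tgfbr2 was at 36.87 FPM in replicate 3 of NRK-49F at pH 7.4, against 79.1 to 81.8 FPM in the others.

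The effect of acidosis differed between the lines, by the interaction test across all genes (FDR below 0.01 in edgeR and DESeq2), for 37 of the 65 genes named. Over all 14679 genes tested the share was 36.9%, but most of the 65 were named for a large change in 1 line, so the count cannot be set against that share. Values are log2 differences, NRK-52E minus NRK-49F. For 4 of the 9 core genes they were −1.40 for Tgfb2, 1.26 for Tgfb3, −0.70 for Tgfbr3 and 0.65 for Smad3. Among storage and activation genes they were −2.67 for Fbn1, −3.25 for Itgb8, −1.52 for Furin and 1.92 for Ltbp1. Among binders and antagonists they were −3.54 for Fmod, −0.64 for Fstl1, −1.39 for Htra1 and 1.98 for Chrd. Among receptors they were 5.57 for Eng, −0.56 for Bambi, −1.58 for Acvr2b and 1.05 for Acvr2a. Among ligands they were −1.77 for Inhbb, −3.21 for Inhba, −1.16 for Bmp6 and 2.11 for Bmp4.

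Among Smads and their regulators the differences were 0.68 for Smad1, 1.66 for Smad6, 0.78 for Ppm1a, 0.51 for Strap, −1.44 for Trim33 and −0.71 for Wwp1. Among targets they were 5.17 for Cdkn1a, 1.23 for Snai1, −2.0 for Postn, −1.48 for Fn1, −1.54 for Ldlrad4, 2.64 for Ccn2 and 1.83 for Col3a1. Among Id genes they were 2.04 for Id4, 2.69 for Id1, 1.59 for Id3 and 1.59 for Id2. When 1 of 16 libraries was left out, the call was lost in 10 fits for Acvr2b (range −1.97 to −1.37), in 7 for Bambi (range −0.68 to −0.50) and in 7 for Id4 (range 1.66 to 2.42). For Acvr2b these include the fit without replicate 3 of NRK-49F at pH 7.4, and for Id4 that without replicate 4 of NRK-52E at pH 6.0. The call was lost in 1 fit each for Ppm1a and Strap (replicate 1 of NRK-52E at pH 6.0), Trim33 (replicate 4 of NRK-49F at pH 7.4) and Fmod (replicate 4 of NRK-49F at pH 6.0). In that fit without replicate 1 of NRK-52E, Ppm1a was at 0.63 and Strap at 0.33. Fmod had 1 to 15 counts per library in NRK-49F.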

How the results depend on the processing

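Over the 5 comparisons, the 45 log2 values of the 9 genes kept their sign and side of the threshold in all cases with DESeq2's size factors, a filter of 1 CPM in 4 libraries, edgeR by itself or its likelihood-ratio test, in 43 with DESeq2 by itself, in 42 without a filter and in 39 at FDR below 0.05. Where a setting changed a result, the cause was not tested. With library totals in place of TMM the median of all genes moved to −0.21 (NRK-52E), 0.34 (line difference at pH 7.4), 0.12 (at pH 6.0) and −0.25 (interaction). Over all genes the DEGs then became 2901 upward and 4304 downward in NRK-52E (3879 and 3921 with TMM), 4936 and 3330 for the line difference at pH 7.4 (4666 and 4670) and 1829 and 3002 for the interaction (2838 and 2574). The line differences at pH 6.0 then changed sign for Smad3 (0.019, the median of the 9) and Smad7 (0.068), the Smad3 interaction (0.41, FDR 0.0311) lost its call, and 41 of 45 values were unchanged in sign and call. Of 154 values of all genes named, 10 lost a call with library totals, namely those of Smad4, Tgif1 and Bhlhe40 in NRK-52E, Eng and Tgif2 in NRK-49F and the interactions of Smad1, Smad3, Ppm1a, Strap and Id4. Without a filter 6 did, Bhlhe40 in NRK-52E, Eng and Tgif2 in NRK-49F, Tgfb2 and Tgfbr1 between the lines at pH 7.4 and the interaction of Bambi. Eng in NRK-49F also lost its call with DESeq2's size factors (FDR 0.0101) or the filter of 1 CPM (FDR 0.011). In NRK-52E, 9 of the 9 genes were called at FDR below 0.05 (5 at 0.01). Within numbers 21 and 22, settings chosen after seeing the data, 3 and 1 were called, and calls over all genes were also fewer, with 2490 upward and 2759 downward of 13903 within 21, and 1433 upward and 1386 downward of 13952 within 22. Within 22, 22 pathway genes were called in NRK-52E (45 in all libraries), and within 21, 27 in NRK-49F (43), where 999 of all 13861 genes tested were called upward and 982 downward (2456 and 2583 of 13339 in all libraries). Signs changed in NRK-52E for Id1 (−0.028), Id2 (−0.16) and Skil (0.10) within 21 and Id3 (0.16) within 22, and in NRK-49F for Tgfbr1 (−0.16) and Smad3 (−0.015) within 20. With all 16 libraries in 1 fit, 5 of the 9 genes differed between the lines at pH 7.4 (8 before, and over all genes 59.8% in place of 66.6%), Smad2 changed sign (−0.047), and in NRK-49F Eng, Bmpr2, Tgif2, Fn1 and Zeb1 lost their calls.

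Leaving out each library in turn gave 4 to 8 of the 9 genes called in NRK-52E (8 without replicate 4 at pH 6.0), with 48.9% to 64% of all genes, and 5 to 7 differing at pH 7.4 (5 without replicate 2 of NRK-52E or 4 of NRK-49F), with 60.4% to 65.4% of all genes. Of 432 such values of the 9 genes, 392 kept sign and call, 29 lost a call, 5 gained one and 6 changed sign. Those with a changed sign had ranges of −0.067 to 0.085 (Tgfbr1 in NRK-49F), −0.0052 to 0.075 (Smad2 at pH 7.4), −0.13 to 0.035 (Smad7 at pH 6.0, line difference) and −0.33 to 0.029 (Tgfbr2, interaction), and among the other genes −0.42 to 0.025 (Skil in NRK-52E). No paired analysis was possible because the labels give each library its own number and do not say which inserts and wells belonged together. Depth was not a limit for the 9 genes, with at least 311 counts per library. It limits genes such as Nodal, Inhba, Fbn1 and Eng in NRK-52E and Itgb6, Fmod, Bmp5 and Acta2 in NRK-49F.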
